A study of Neurospora crassa with 8 samples.

Results

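The genes examined are 9 of the 9730 genes in a table of normalized read counts from the filamentous fungus Neurospora crassa. They were named by their identifiers for their known roles in cell fusion and in mitogen-activated protein (MAP) kinase signalling. The rule uses no measured value, but the genes were chosen with earlier results of these data known. They are mak-2 (NCU02393), mek-2 (NCU04612), nrc-1 (NCU06182), pp-1 (NCU00340), ham-5 (NCU01789), so (NCU02794), ham-2 (NCU03727), mak-1 (NCU09842) and os-2 (NCU07024). All 9 passed the filter on low values, with between 342 and 7720 reads each in every library.

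Poly-A RNA was sequenced from 2 strains labelled ∆pas (N7617, replicate 1, and N7680, replicate 2), both of mating type a with the marker nat-1 placed at pas, and from 2 wild type (WT) strains. WT replicate 1 (N3752) is of mating type A and WT replicate 2 (N3753) of mating type a. Each library came from its own strain, and all were cultured for 16 hours at 32 °C, shaken, in minimal medium that held 1.5% sucrose. The series names pas (NCU04278) as an accessory subunit of Polycomb repressive complex 2, which methylates lysine 27 of histone H3, and it set the mutant beside a deletion of set-7, the gene of the catalytic subunit. The comparison asks whether genes of cell fusion and MAP kinase signalling differ in the mutant.

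As background, a MAP kinase cascade passes a signal from a kinase kinase kinase through a kinase kinase to the MAP kinase, which then acts on transcription factors and other proteins. In N. crassa, germinating spores grow towards each other and fuse into one network, and the MAK-2 cascade drives this attraction and fusion. Separate cascades end in MAK-1, which maintains cell wall integrity, and in OS-2, which answers osmotic stress.

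The depth was 14679872 and 13679487 reads in genes for ∆pas replicates 1 and 2, against 7139105 and 10997599 in WT replicates 1 and 2. The deleted gene did not check the labels: pas had a normalized count of 43.1 and 98.1 in the libraries labelled ∆pas and 119 and 95.1 in WT, so every direction below rests on the labels. Reads outside annotated features made up 13.9% and 6.76% of all reads for ∆pas replicates 1 and 2, against 5.41% and 15.2% in WT replicates 1 and 2. The tissue is labelled as germinated conidia, and all 4 conidial marker genes examined had reads in every library. Their summed level was 9758 and 7599 normalized counts in libraries labelled ∆pas, against 14167 and 33246 in WT. That sum was led by eas, a spore coat hydrophobin, with 3311 and 2983 normalized counts in libraries labelled ∆pas and 8931 and 30017 in WT. The other markers of conidia did not share that direction: con-6 had 999 and 1157 in the libraries labelled ∆pas and 636 and 562 in WT, and con-8 had 3066 and 2748 in the libraries labelled ∆pas and 2527 and 1608 in WT, while con-10 overlapped. None of the 4 was called by limma, and DESeq2 called con-6 higher and eas lower. Summed levels of 3 genes listed as mycelial markers (actin, tef-1 and hex-1) were 181095 and 180253 in the libraries labelled ∆pas and 227109 and 233793 in WT. That sum was led by tef-1, with 119564 and 134550 in the libraries labelled ∆pas and 142910 and 152326 in WT. It is therefore no measure of how much mycelium a library held. All 3 genes were lower without overlap, as were 26.5% of all tested genes. Limma called none of them, and DESeq2 called hex-1 lower (adjusted p = 0.0342). Summed levels of 3 sexual markers (asd-1, mfa-1 and ccg-4) were 3554 and 2242 in the libraries labelled ∆pas and 2941 and 3969 in WT. Of these, asd-1 had 3422 and 2143 in the libraries labelled ∆pas and 2636 and 1958 in WT. Within that sum the pheromone precursor gene mfa-1 had 132 and 99.8 in the libraries labelled ∆pas and 46.8 and 2008 in WT. The other pheromone precursor gene, ccg-4, had 0.784 and 0 in the libraries labelled ∆pas and 258 and 3.10 in WT. The 258 came from WT replicate 1, the only strain of mating type A, and the 2008 of mfa-1 from WT replicate 2, of mating type a. Both strains labelled ∆pas are of mating type a, so group and mating type are partly confounded in every comparison below. The part of these differences in the values below was not tested. In bulk RNA, fewer cells of a kind and less RNA per cell cannot be told apart.

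None of the 9 genes passed limma's test between the libraries labelled ∆pas and WT, with Benjamini-Hochberg adjustment over 8219 genes. Of all tested genes, 0.28% were called higher and 0.0852% lower at an adjusted p under 0.05, so few calls could be looked for among 9 genes. At an unadjusted p under 0.05, limma gave 0 higher and 1 lower member, os-2, against 10.2% and 11.1% of all tested genes. The quasi-likelihood test of edgeR and DESeq2, both on recovered reads, also called 0 members, and DESeq2 called 3.28% higher and 4.39% lower of the 7900 genes to which it gave an adjusted p. The groups did not overlap in 2 members, os-2 and pp-1, both with lower values in the libraries labelled ∆pas, while 26.5% of tested genes showed such a gap downwards and 29.5% upwards. The median log2 fold change of the members was 0.02, against 0.03 for all tested genes, and 5 lay above 0 and 4 below. The absolute log2 fold change had a median of 0.13 in the members and 0.31 over all tested genes. Those tested genes reach down to a mean of 5 normalized counts, while each member had at least 342 reads in every library. They were not matched for level, so the smaller median is not shown to be a trait of the members.

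**Figure D1:**
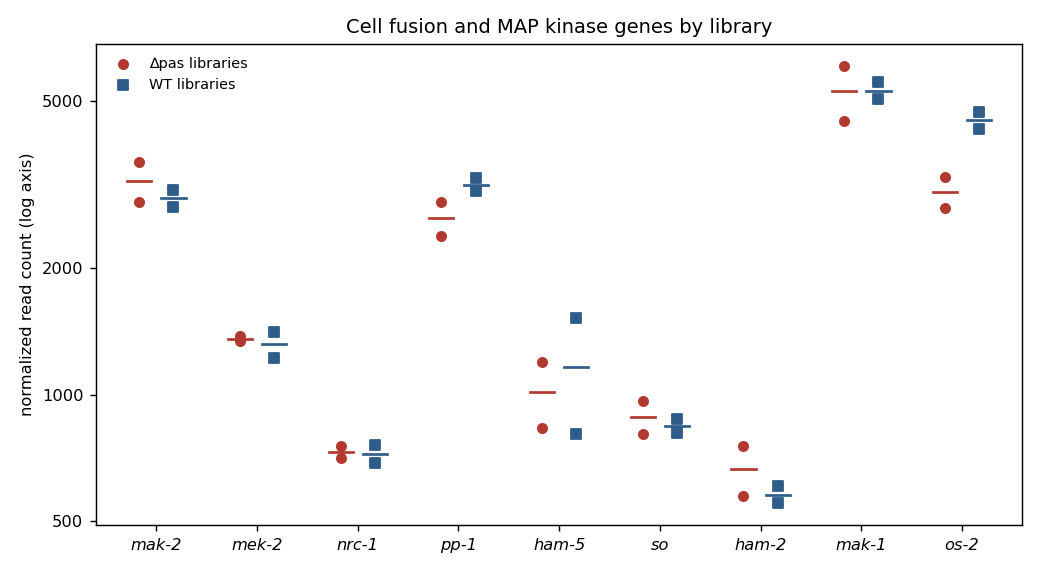
Normalized read count (log axis) of each gene in the 2 libraries labelled ∆pas (red circles, left) and the 2 WT libraries (blue squares, right), with short lines at the group means. Only pp-1 and os-2 have both ∆pas values below both WT values, at 2876 and 2378 against 3270 and 3044 for pp-1 and at 3298 and 2773 against 4295 and 4707 for os-2.

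The 3 kinase genes of the fusion cascade overlapped between the groups. The MAP kinase gene mak-2 had 2871 and 3566 normalized counts in ∆pas replicates 1 and 2, against 2789 and 3074 in WT replicates 1 and 2. ∆pas replicate 2 was the highest library and the groups overlapped. The means were 3219 ± 492 and 2931 ± 202 (SD, n = 2 each), and the log2 fold change came to 0.13 ± 0.168 (SE; limma's adjusted p = 0.691). Its 95% interval ran from 0.824 to 1.45 times the WT level.

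The kinase that activates MAK-2 is encoded by mek-2, which had 1377 and 1338 normalized counts in libraries labelled ∆pas and 1225 and 1407 in WT. Both ∆pas values lay between the WT values. The log2 fold change was 0.05 ± 0.154 (SE; limma's adjusted p = 0.881), with a 95% interval from 0.799 to 1.34 times WT.

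At the head of the cascade, the kinase kinase kinase gene nrc-1 had 706 and 754 normalized counts in libraries labelled ∆pas and 759 and 686 in WT. The ∆pas values again lay inside the WT range. The log2 fold change was 0.02 ± 0.16 (SE; limma's adjusted p = 0.968), with a 95% interval from 0.774 to 1.32 times WT. The sign of these small differences rested on single libraries, since the log2 fold change was -0.028 for mak-2 without ∆pas replicate 2, -0.051 for mek-2 without WT replicate 1 and -0.056 for nrc-1 without WT replicate 2 (-0.032 without ∆pas replicate 2).

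PP-1 is a transcription factor downstream of MAK-2, related to Ste12 of budding yeast. Its gene had 2876 and 2378 normalized counts in libraries labelled ∆pas, against 3270 and 3044 in WT, with no overlap. The means were 2627 ± 352 and 3157 ± 160 (SD, n = 2 each), and the log2 fold change came to -0.27 ± 0.161 (SE; limma's adjusted p = 0.373). The 95% interval ran from 0.633 to 1.09 times WT and so includes no difference. The gap was uneven: it was -0.46 on the log2 scale between the 2 libraries with few reads outside features (∆pas replicate 2 and WT replicate 1) and -0.08 between the other 2.

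HAM-5 is the scaffold that holds the kinases of the MAK-2 cascade together. Its gene had 1194 and 833 normalized counts in ∆pas replicates 1 and 2, against 805 and 1518 in WT replicates 1 and 2. The WT libraries enclosed both ∆pas values. The log2 difference between the WT replicates, 0.91, was at the 94.0th percentile of all tested genes, and that between the ∆pas replicates, 0.52, at the 74.4th. The log2 fold change was -0.15 ± 0.329 (SE; limma's adjusted p = 0.822), with a 95% interval from 0.519 to 1.56 times WT, the widest of the 9 genes. Without WT replicate 2 the log2 fold change was 0.31, and without ∆pas replicate 2 it was 0.11 (adjusted p by limma = 0.676 and 0.910).

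SO (soft) is a scaffold protein that appears at the tips of fusing cells in alternation with MAK-2. The so gene had 963 and 805 normalized counts in libraries labelled ∆pas and 809 and 873 in WT. The ∆pas values enclosed those of WT. Its log2 fold change was 0.07 ± 0.169 (SE; limma's adjusted p = 0.844), with a 95% interval from 0.79 to 1.39 times WT. Without ∆pas replicate 1 the log2 fold change was -0.062.

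HAM-2 is a membrane protein of the striatin-interacting phosphatase and kinase complex and is needed for fusion. The ham-2 gene had 573 and 754 normalized counts in libraries labelled ∆pas and 552 and 605 in WT. ∆pas replicate 2 was the highest library, while ∆pas replicate 1 lay between the WT values. The means were 663 ± 127 and 578 ± 37.3 (SD, n = 2 each), at a log2 fold change of 0.19 ± 0.194 (SE; limma's adjusted p = 0.609) and a 95% interval from 0.822 to 1.57 times WT. Without ∆pas replicate 2 the log2 fold change was -0.011.

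The MAP kinase of the cell wall integrity cascade is encoded by mak-1. It had 6054 and 4471 normalized counts in libraries labelled ∆pas, against 5040 and 5532 in WT. The ∆pas libraries were both the highest and the lowest of the 4. The log2 fold change was -0.02 ± 0.189 (SE; limma's adjusted p = 0.964), and the 95% interval ran from 0.718 to 1.35 times WT. Without ∆pas replicate 2 the log2 fold change was 0.20, and without WT replicate 2 it was 0.046.

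The osmosensing MAP kinase gene os-2, whose product is related to Hog1 of budding yeast, had 3298 and 2773 normalized counts in libraries labelled ∆pas, against 4295 and 4707 in WT. Both ∆pas libraries lay below both WT libraries. The means were 3036 ± 371 and 4501 ± 292 (SD, n = 2 each), and the log2 fold change came to -0.57 ± 0.159 (SE; limma's adjusted p = 0.126, unadjusted p = 0.0105). Its 95% interval, taken alone and not adjusted for the number of genes, ran from 0.515 to 0.878 times WT. DESeq2 on recovered reads gave a log2 fold change of -0.58 with an adjusted p of 0.0669, and edgeR -0.58 with 0.122. The log2 difference was -0.63 between the 2 libraries with few reads outside features and -0.51 between the other 2. Without ∆pas replicate 1 it was -0.70 and passed the threshold (adjusted p by limma = 0.0341), in a fit that takes the single ∆pas library to vary as the WT pair does and that called 7.12% of all tested genes lower and 6.3% higher. The ∆pas library left in that fit, replicate 2, had a pas count of 98.1, inside the WT range of 95.1 to 119. With all 4 libraries, the absolute log2 fold change of os-2 stood at the 75.8th percentile of all tested genes, which were not matched to it for level.

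The members differed in how they varied over the 4 libraries. Between replicates, the median absolute log2 difference of the members was 0.27 in the libraries labelled ∆pas and 0.13 in WT. Over all tested genes, which were not matched to the members for level, it was 0.28 and 0.21. Likeness of pattern was measured as the root mean square difference of log2 values, each centred on the gene's mean, over the 4 libraries. Of the 36 pairs of members, mak-2 and ham-2 were nearest, at 0.0408, with both genes highest in ∆pas replicate 2 and lowest in WT replicate 1. The next were so with mak-1, at 0.0777, and mek-2 with so, at 0.0834. The farthest pair was ham-5 with ham-2, at 0.457. With 4 libraries of shared depth and scaling these distances only describe the values. Over all tested genes, those nearest to mak-2 were NCU06732 at 0.0070, mim1 (NCU01101) at 0.0102 and NCU03485 at 0.0175, all closer to it than ham-2.

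In 5 members both libraries with a high share of reads outside annotated features lay on the same side of both with a low share. With 4 libraries, a gene split in that way cannot also be split by strain label. Anything else shared by ∆pas replicate 1 and WT replicate 2 would give the same split. In mak-2 and ham-2, both replicates numbered 2 stood above both numbered 1. Higher in both libraries with a high share (∆pas replicate 1 and WT replicate 2) than in both with a low one were 4 of the 9 members, mek-2, ham-5, so and mak-1, against 9.44% of all tested genes. Lower in both was 1 member, nrc-1, against 7.97% of all tested genes. The separation was widest in ham-5, with 1194 and 1518 normalized counts at a high share and 833 and 805 at a low share, a mean log2 difference of 0.72. In so, the values were 963 and 873 at a high share and 805 and 809 at a low share. In mak-1 they were 6054 and 5532 at a high share, against 4471 and 5040 at a low share. With the share as a covariate, limma called 0 members, and the log2 fold changes of ham-5 and os-2 were -0.15 and -0.57 (adjusted p by limma = 0.776 and 0.286). That fit called 0.146% of all tested genes higher and 0.0122% lower. Each group held 1 library with a high share and 1 with a low one, so this covariate could hardly move a fold change. It also left less information for estimating the spread than the main fit had. The part of the share in these values was not tested.

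**Figure D2:**
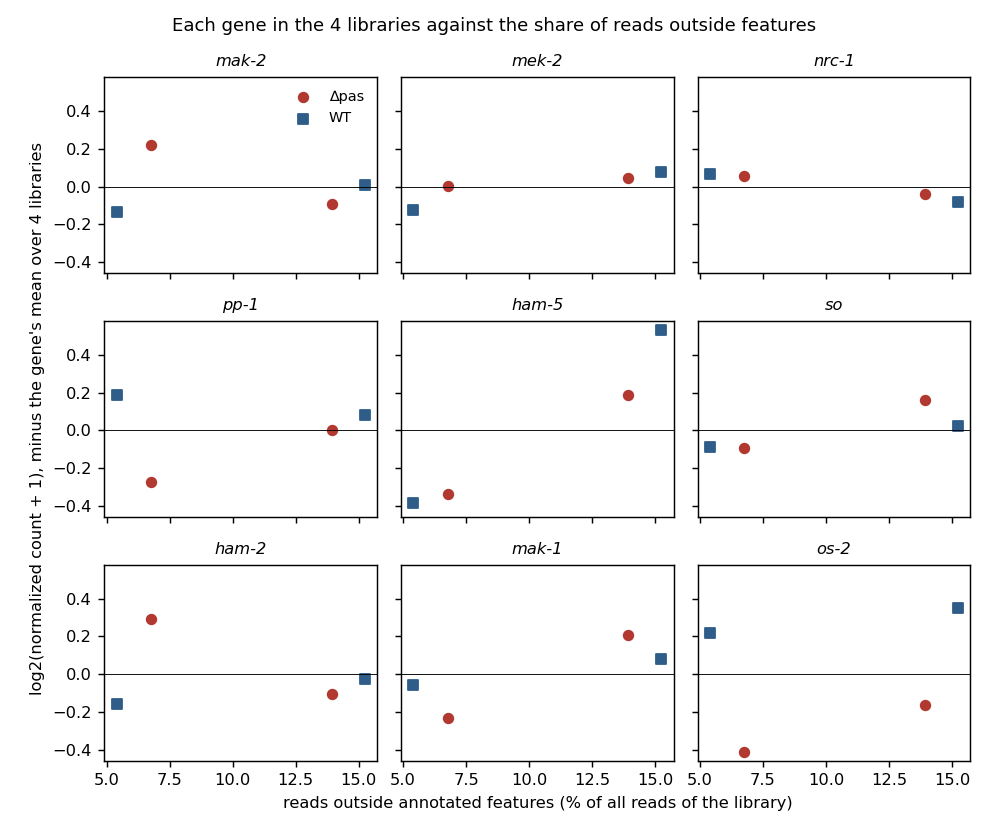
Log2(normalized count + 1) of each gene, minus its mean over the 4 libraries, against the percentage of a library's reads outside annotated features. Circles are the libraries labelled ∆pas and squares WT. In ham-5 both libraries at 13.9% and 15.2% stand above both at 6.76% and 5.41%, while in os-2 both ∆pas libraries stand below both WT libraries at either share.

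The authors' deposited tables give their own comparisons of ∆pas and of ∆set-7 with WT, made together with earlier libraries of WT and ∆set-7, per the series' design text. Both comparisons rest on WT, so their values are set side by side without a test between them. The ∆set-7 libraries were all earlier ones, and the ∆pas libraries were all of this series. Mutant and set of libraries cannot be told apart between those tables. In the authors' deposited values for ∆pas, 0 of the 9 members had an adjusted p under 0.05, with values from 0.601 to 0.978, against 0.796% of genes called higher and 0.392% lower. None had an unadjusted p under 0.05 there in either direction. By that rule 4.9% of genes were lower, and the share that was higher is not given here. In the authors' deposited ∆set-7 table the count was also 0, against 2.31% of genes called higher and 3% lower, and the adjusted p ran from 0.0729 to 0.986. The lowest belonged to pp-1, with a log2 fold change of -0.65 ± 0.229 (SE) in ∆set-7 and an unadjusted p of 0.00476, the 1 member under 0.05, where 10% of genes were lower by that rule. In the authors' deposited ∆pas table pp-1 had -0.05 ± 0.228 (SE).

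Other members stood apart between the authors' deposited tables without passing their test. For os-2 the authors' deposited log2 fold changes were -0.08 ± 0.401 (SE) in ∆pas and -0.66 ± 0.401 in ∆set-7. For mak-1 they were 0.43 ± 0.432 in ∆pas and -0.58 ± 0.432 in ∆set-7, and for ham-5 0.18 ± 0.399 and -0.58 ± 0.4. The difference between the mutants was not tested and is confounded with the set of libraries. The authors' deposited values of mak-2 were 0.22 ± 0.164 in ∆pas and 0.13 ± 0.164 in ∆set-7, and those of so, nrc-1, mek-2 and ham-2 lay between -0.02 and 0.29 in both.

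**Figure D3:**
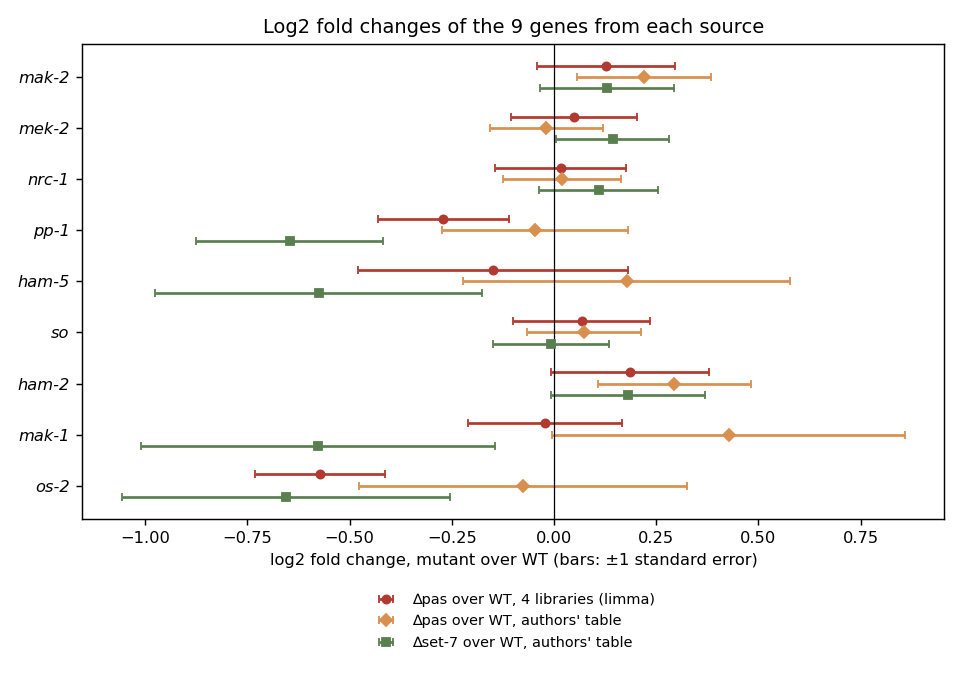
Log2 fold change of mutant over WT for each gene with bars of ±1 standard error, from limma on the 4 libraries (circles) and from the authors' deposited tables for ∆pas (diamonds) and ∆set-7 (squares). For os-2 the value from the 4 libraries is -0.57 and that of the authors' deposited ∆pas table -0.08, and pp-1, ham-5, mak-1 and os-2 lie between -0.66 and -0.58 in ∆set-7.

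The authors' fit held other libraries beside these 4, and the means show it. That of os-2 was 3768 normalized counts over the 4 libraries and 2811 in the authors' deposited table, whose means were the same in both comparisons. The first was 1.34 times the second, at the 89.7th percentile of all tested genes, where the median ratio was 0.997. For mak-1 the ratio was 1.44, at the 93.5th percentile, and for ham-5 it was 1.33, at the 89.0th. For pp-1 it was 1.19, and for the other 5 members between 0.95 and 1.06. The standard errors in the authors' deposited ∆pas table were 0.399 to 0.432 for ham-5, os-2 and mak-1, 0.228 for pp-1 and 0.138 to 0.187 for the rest. The further libraries themselves were not used here.

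**Figure D4:**
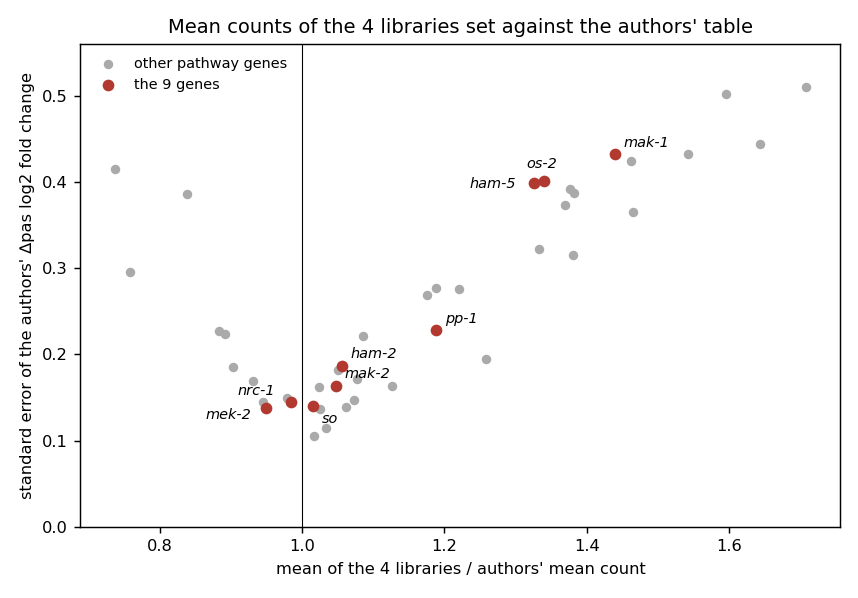
Standard error of the authors' deposited ∆pas log2 fold change against the mean of the 4 libraries divided by the authors' mean count, for the 9 genes (red, named) and 34 other pathway genes (grey). The 9 genes run from mek-2 at a ratio of 0.95 to mak-1 at 1.44 and the 3 genes with ratios of 1.33 to 1.44 have standard errors of 0.399 to 0.432, against 0.138 to 0.228 for the others.

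Around these 9 genes, 34 other genes of the same pathways were examined, of which 28 carry the listed name in the reference. None was called by limma at an adjusted p under 0.05 over all tested genes; 4 had an unadjusted p under 0.05 with higher values in the libraries labelled ∆pas and 0 with lower ones, against 10.2% and 11.1% of all tested genes. The quasi-likelihood test of edgeR called 0 and DESeq2 called 1, adv-1, where it called 3.28% of its 7900 genes higher. Groups did not overlap in 12 genes with higher and 9 with lower values in the libraries labelled ∆pas, against 29.5% and 26.5% of all tested genes.

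Among 8 other genes of the MAK-2 cascade and its upstream steps, the median log2 fold change was 0.03, with 5 above 0. With quantile scaling it was -0.015, with 3 above 0, and with 1 library left out 4 to 6 lay above 0. The authors' deposited ∆pas table had 3 of the 8 above 0 and 5 below. The transcription factor gene adv-1, needed for fusion, had 12792 and 15161 normalized counts in libraries labelled ∆pas, against 6895 and 9719 in WT. Both ∆pas libraries lay above both of WT, and the log2 fold change came to 0.77 ± 0.21 (SE; limma's adjusted p = 0.122). It passed with DESeq2 on recovered reads (log2 fold change 0.73, adjusted p = 0.0461) and in limma without ∆pas replicate 1 (0.89, adjusted p = 0.0455), where 6.3% of all tested genes were called higher. It did not pass with any other library left out, at 0.52 to 1.01 (adjusted p by limma = 0.230 to 0.623), nor with the covariate (0.244) or edgeR (0.136). Without ∆pas replicate 1, the ∆pas side was replicate 2 alone, whose pas count lay inside the WT range. In the authors' deposited tables adv-1 had 1.04 ± 0.51 (SE) in ∆pas and -0.85 ± 0.51 in ∆set-7, and neither had an adjusted p under 0.05. The mean of adv-1 over the 4 libraries was 1.71 times the authors' mean count, at the 98.6th percentile of all tested genes. Next came ty-1, at a log2 fold change of 0.30 ± 0.161 (SE; limma's adjusted p = 0.336), and cdc24, an activator of small GTPases of cell polarity, with 0.26 ± 0.178 (SE; limma's adjusted p = 0.443).

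The 14 other fusion genes were evenly split, with 7 above 0, 7 below and a median log2 fold change of 0.00284. Without ∆pas replicate 2, 9 lay above 0 and the median was 0.17, and without ∆pas replicate 1 the median was -0.077. With edgeR, DESeq2, TMM and quantile scaling it was between -0.017 and -0.0082. The authors' deposited ∆pas table had 11 of the 14 above 0 and 3 below. The gene nor-1, a regulatory subunit of NADPH oxidase, had 4262 and 6117 normalized counts in libraries labelled ∆pas, against 2621 and 3474 in WT. There was no overlap, and the log2 fold change came to 0.76 ± 0.231 (SE; limma's adjusted p = 0.145). Without ∆pas replicate 1 it was 1.02 and passed (adjusted p by limma = 0.0226), in the fit that called 6.3% of all tested genes higher. With any other library left out it lay between 0.50 and 0.96 and did not pass (adjusted p by limma = 0.286 to 0.665). Without ∆pas replicate 1, the ∆pas side was again replicate 2 alone, whose pas count lay inside the WT range. The authors' deposited ∆pas table gave nor-1 0.09 ± 0.386 (SE). The membrane protein gene ham-8 had 11080 and 9484 normalized counts in libraries labelled ∆pas and 6733 and 7559 in WT, at a log2 fold change of 0.52 ± 0.161 (SE; limma's adjusted p = 0.145). NCU04732 had 7736 and 7097 normalized counts in libraries labelled ∆pas and 5662 and 4812 in WT, with 0.51 ± 0.157 (SE; limma's adjusted p = 0.151).

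In the lists around mak-1 and os-2 no gene passed, and 52.9% of all tested genes lay above 0. Of 6 genes of the cell wall integrity cascade upstream of MAK-1, 5 lay above 0 and the median log2 fold change was 0.21, with 0.11 without ∆pas replicate 1. Of these 6 genes, 4 lay above 0 and 2 below in the authors' deposited ∆pas table. Protein kinase C (pkc) had 2524 and 2577 normalized counts in libraries labelled ∆pas and 1891.5 and 2316 in WT, a log2 fold change of 0.29 ± 0.162 (SE; limma's adjusted p = 0.354). The surface sensor gene wsc-1 had 0.28 ± 0.156 (SE; limma's adjusted p = 0.347), and mek-1, whose product activates MAK-1, 0.26 ± 0.177 (SE; limma's adjusted p = 0.429).

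Of 6 other genes of osmosensing, all 6 lay below 0, with a median log2 fold change of -0.11, and all 6 did so under each scaling and filter tried. With WT replicate 2 left out 4 of the 6 lay below 0, and with ∆pas replicate 2 or WT replicate 1 left out, 5. The median was -0.17 without WT replicate 2 and -0.16 without ∆pas replicate 1. Of the same genes, 3 lay above 0 and 3 below in the authors' deposited ∆pas table. The response regulator gene rrg-1, which acts upstream of OS-2, had 1576 and 1558 normalized counts in libraries labelled ∆pas and 2095 and 1823 in WT, a log2 fold change of -0.32 ± 0.152 (SE; limma's adjusted p = 0.285). A further response regulator gene, rrg-2, had -0.22 ± 0.171 (SE; limma's adjusted p = 0.499), and the histidine kinase gene os-1 -0.16 ± 0.143 (SE; limma's adjusted p = 0.562). In the authors' deposited ∆set-7 table, 3 of the 34 genes were called lower and 0 higher, against 3% and 2.31% of all genes in it. These were mek-1, with -0.85 ± 0.195 (SE; the authors' deposited adjusted p = 0.000754), os-4, the kinase kinase kinase gene of the OS-2 cascade, with -1.35 ± 0.366 (adjusted p = 0.00806), and ham-6 with -1.54 ± 0.446 (adjusted p = 0.0166). For ∆pas, the authors' deposited table gave no call among the 34, with the same 3 genes at 0.39, 0.32 and 0.79. These 3 were named after their values were seen. Their means over the 4 libraries were 1.26, 1.47 and 1.64 times the authors' mean counts, in the same order. Those ratios stood at the 84.8th, 94.3th and 97.8th percentiles of all tested genes. Here too, mutant and set of libraries cannot be told apart.

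**Figure D5:**
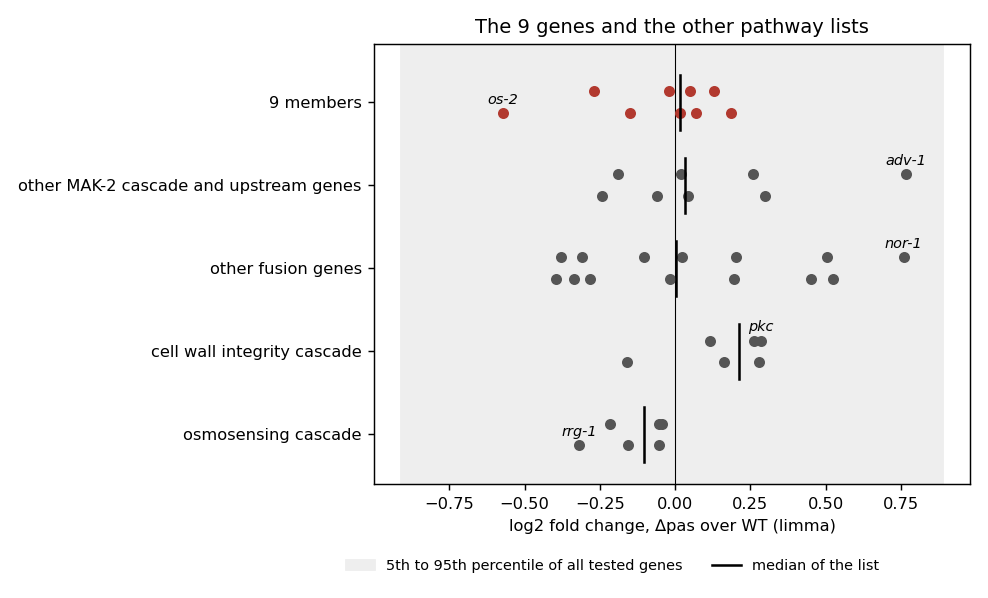
Log2 fold change of ∆pas over WT from limma for the 9 genes (red) and 4 lists of other pathway genes (grey), with a line at each list's median and the gene farthest from 0 named. All points lie inside the 5th to 95th percentile of all tested genes, from -0.91 to 0.89 (grey band, not matched for level).

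In the gene order of the RefSeq reference, the 9 genes lay between 137 and 514 genes from the nearest chromosome end. The reference has 4 of them, mak-2, mek-2, ham-2 and mak-1, overlapping a neighbouring gene. Their counts are uncertain to that extent, since it is not given whether the counting used strand.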

How the data were processed

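The deposited gene table holds a signal: the read counts of the 4 RNA libraries as normalized by the authors. Its 4 further columns match no sample of this series and were not used. Every value was a whole multiple (within 0.01 read) of 1 step per library for 100% of values, so reads could be recovered. The submitters' processing notes name Bowtie2, DESeq2 and deepTools; counter, annotation, build and strand setting are not given in the sources used here. The authors' deposited tables hold, per the file headers, log2 fold changes with standard errors, a Wald score, p-values and adjusted p-values; their sign (WT over mutant, since set-7 is positive in the ∆set-7 table) was turned.

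From these, 4 counter summary entries were left out (20.4% and 12.1% of reads in ∆pas replicates 1 and 2, 13.5% and 22.0% in WT replicates 1 and 2). The filter kept 8219 genes whose normalized counts averaged at least 5. Their log2 values, with a pseudocount of 1, were tested in limma 3.58.1 under R 4.3.3 (intensity trend, no term but group), with edgeR 4.0.16 and DESeq2 1.42.0 on recovered reads as alternatives. Fold changes are on the log2(value + 1) scale, which understates those of low genes. Intervals are at 95%, from moderated errors. All tests were two-sided, and were tested on simulated data. That simulation gave all genes a common spread setting and changed genes by more than any member differed here. It cannot show whether differences as small as those of the members would be found. The smallest p that an exact permutation test can give here is 0.333. The spread is between single strains. The members, lists and alternatives were chosen with earlier results of these data known. The text names all members, any called gene of each list, the 3 genes of each list with the largest absolute log2 fold change, and the 3 genes nearest to mak-2 in pattern. Names come from the RefSeq table of assembly NC12. Replicates are numbered in sample order. The 4 ChIP libraries were not analysed here. A count of 0 would allow up to 3 reads. No member came near that floor.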

Additional observations from a re-analysis of the deposited data

How the results depend on the processing

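None of the 9 members was called under 2 other pseudocounts, 2 other filters, no intensity trend, edgeR, DESeq2, TMM scaling, quantile scaling or the covariate; the sign of nrc-1 turned with quantile scaling, to -0.0087. Against 23 higher and 7 lower genes over the whole table, dropping the filter gave 15 and 3, no trend 7 and 0, edgeR 23 and 7, DESeq2 259 and 347, the covariate 12 and 1, and quantile scaling 3 lower; DESeq2 called 1 of the other pathway genes higher. The cause was not tested. Leaving out 1 library each gave 0 to 518 higher and 0 to 585 lower genes, 0 or 1 lower member, 0 to 2 higher pathway genes, and a member median of -0.06 to 0.12. Log2 fold changes then ran from -0.028 to 0.28 (mak-2), -0.051 to 0.15 (mek-2), -0.056 to 0.088 (nrc-1), -0.61 to 0.31 (ham-5), -0.062 to 0.20 (so), -0.011 to 0.38 (ham-2) and -0.24 to 0.20 (mak-1), but from -0.41 to -0.13 for pp-1 and -0.70 to -0.45 for os-2. Without WT replicate 1 or without WT replicate 2 there were 0 calls over the whole table. No paired analysis was possible because the labels give strain names and no replicate numbers. With 2 strains per group the intervals given for each gene are wide, and they are not adjusted for the number of genes. A gene whose interval left out no difference, as that of os-2 did, could still miss the adjusted threshold.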
